A study of Homo sapiens with 3 samples.

Results

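The intermediate filament genes of glia and neurons were followed here on 3 Affymetrix arrays: GFAP, VIM, NES, SYNM, INA, NEFL, NEFM and NEFH. Every probe set whose only gene symbol was 1 of these genes was taken, which gave 16 of the 41091 probe sets with 1 symbol, for 8 of 19775 genes. All RNA came from cultures of H9, an established human embryonic stem cell line whose differentiation began with embryoid bodies lifted off mouse feeder cells. The RA astrocytes were collected at day 210 after retinoic acid (RA) from day 10 to day 21. The FGF8 astrocytes were collected at day 210 after fibroblast growth factor 8 over the same days. The neuroepithelial cells were collected at day 17 without either morphogen. Against them, days in culture, cell type and morphogen all differ and cannot be told apart. Below, after RA and after FGF8 name these cultures and not an effect of the morphogen. Each group was a single array of a single line. No difference therefore has a replicate check, a p-value or a standard error, and precision is limited by there being 3 arrays.

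Intermediate filaments are rope-like polymers that give a cell mechanical strength, and their subunits change as neural cells mature. Neural progenitors build filaments of vimentin with nestin, astrocytes add glial fibrillary acidic protein, and neurons build neurofilaments from light, medium and heavy subunits with alpha-internexin. Synemin and nestin do not form filaments on their own but join filaments of vimentin-like proteins. The change from vimentin and nestin to GFAP is a classical sign of astrocyte maturation, and GFAP also climbs when astrocytes react to injury.

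Values are intensities normalized between the arrays (quantile normalization), and differences are on the log2 scale of these intensities. A normalized signal of 26.4, the median over probe sets other than controls, served as a floor under which values have no order. Where 1 of the arrays compared was under it, the difference is a bound and its fold is given after the words at least. Of the 16 probe sets, 10 lay above the floor on all 3 arrays, 4 on some arrays and 2 on none. A difference of at least 2-fold is called higher or lower. The astrocyte label was checked against 12 markers. By each gene's brightest, or lead, probe set, 8 were higher in RA and 7 in FGF8 astrocytes than in neuroepithelial cells. Of all genes read this way, 18.1% and 12.8% were higher. By the mean of each gene's probe sets the marker counts were 5 and 6. AQP4 and S100B lay above the floor on both astrocyte arrays and below it in neuroepithelial cells, while ALDOC was 4.08-fold lower in RA astrocytes and 3.52-fold lower in FGF8 astrocytes, and ALDH1L1 was within 2-fold. All 8 neuroepithelium markers lay above the floor on the neuroepithelial array. On that array 8 of 8 mesenchymal and 6 of 6 epithelial markers were above the floor too, against 2 and 2 in RA astrocytes and 3 and 1 in FGF8 astrocytes. The mesenchymal signals there ran from 32.4 for TWIST1, near the floor, to 5019 for COL1A1. Whether other cells were present was not tested.

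Technical controls moved with the groups. The ACTB 3′ to 5′ signal ratio was 6.67 in RA astrocytes, 6.63 in FGF8 astrocytes and 1.33 in neuroepithelial cells. The GAPDH ratio moved the same way but less, at 1.79, 1.65 and 0.98 in the same order. These control transcripts were thus read with a stronger 3′ bias on both astrocyte arrays, to unlike degrees. The 18 spike-in probe sets were brighter in RA astrocytes by 1.39 log2 units than in neuroepithelial cells and by 1.27 than in FGF8 astrocytes. Scaling therefore matters. The median difference of all compared probe sets between RA astrocytes and neuroepithelial cells was -0.0095 after quantile normalization, -0.14 with the deposited values, 0.22 with equal array medians and -1.19 when the arrays were scaled to the spike-ins. The share of higher among all probe sets past 2-fold was 50.1%, 42.1%, 64.3% and 5.44% in the same order. For FGF8 astrocytes against neuroepithelial cells the medians were 0.00032, -0.11, 0.31 and -0.23, with shares of 49.5%, 40.9%, 70.7% and 31.2%. For RA against FGF8 astrocytes the spike-in scaling gave a median of -1.14 and a share of 3.0%, against -0.0095 and 53.1%. A probe set is read below against these shifts.

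**Figure D1:**
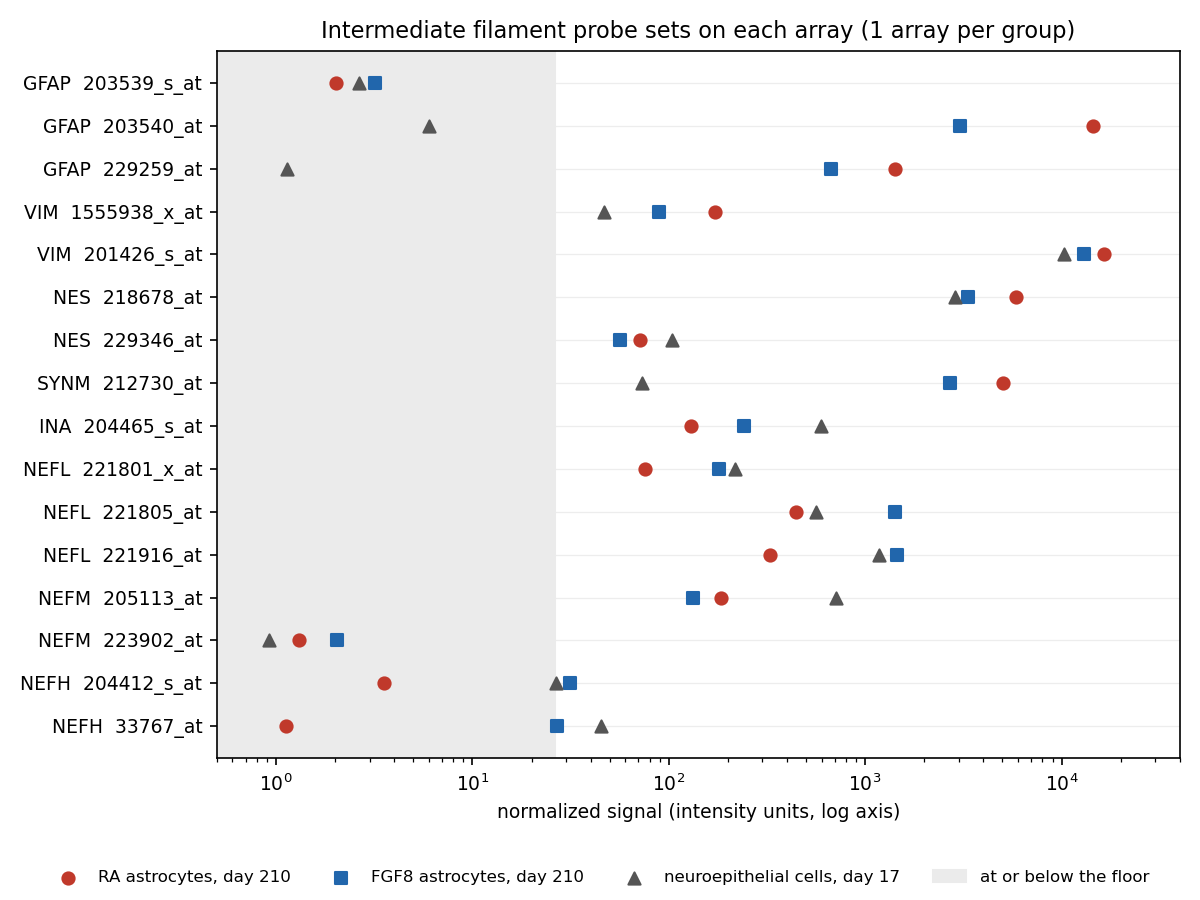
Normalized signal (log axis) of each of the 16 intermediate filament probe sets in RA astrocytes, FGF8 astrocytes and neuroepithelial cells, 1 point per array, with values at or below the floor of 26.4 in the grey zone. GFAP 203540_at and SYNM 212730_at separate both astrocyte arrays from the neuroepithelial array, and the NEFL probe sets put the RA point left of the FGF8 point.

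The glial filament genes GFAP and SYNM were far higher in both astrocyte cultures than in neuroepithelial cells, and INA and NEFM were lower. VIM and NES each had 1 probe set past 2-fold higher in RA astrocytes and none in FGF8 astrocytes. NEFL divided the astrocyte cultures. In RA astrocytes against neuroepithelial cells 5 of the 16 probe sets were higher and 4 lower, with 5 within 2-fold and 2 at the floor on both arrays. Among all 25854 probe sets compared there, 16.0% were higher and 16.0% lower. In FGF8 astrocytes against neuroepithelial cells 4 were higher and 2 lower, where 11.3% of all compared probe sets were higher and 11.5% lower. In RA against FGF8 astrocytes 2 were higher and 3 lower, against 8.99% and 7.94%. The first and second of these comparisons share the neuroepithelial array, so they are not independent of each other.

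**Figure D2:**
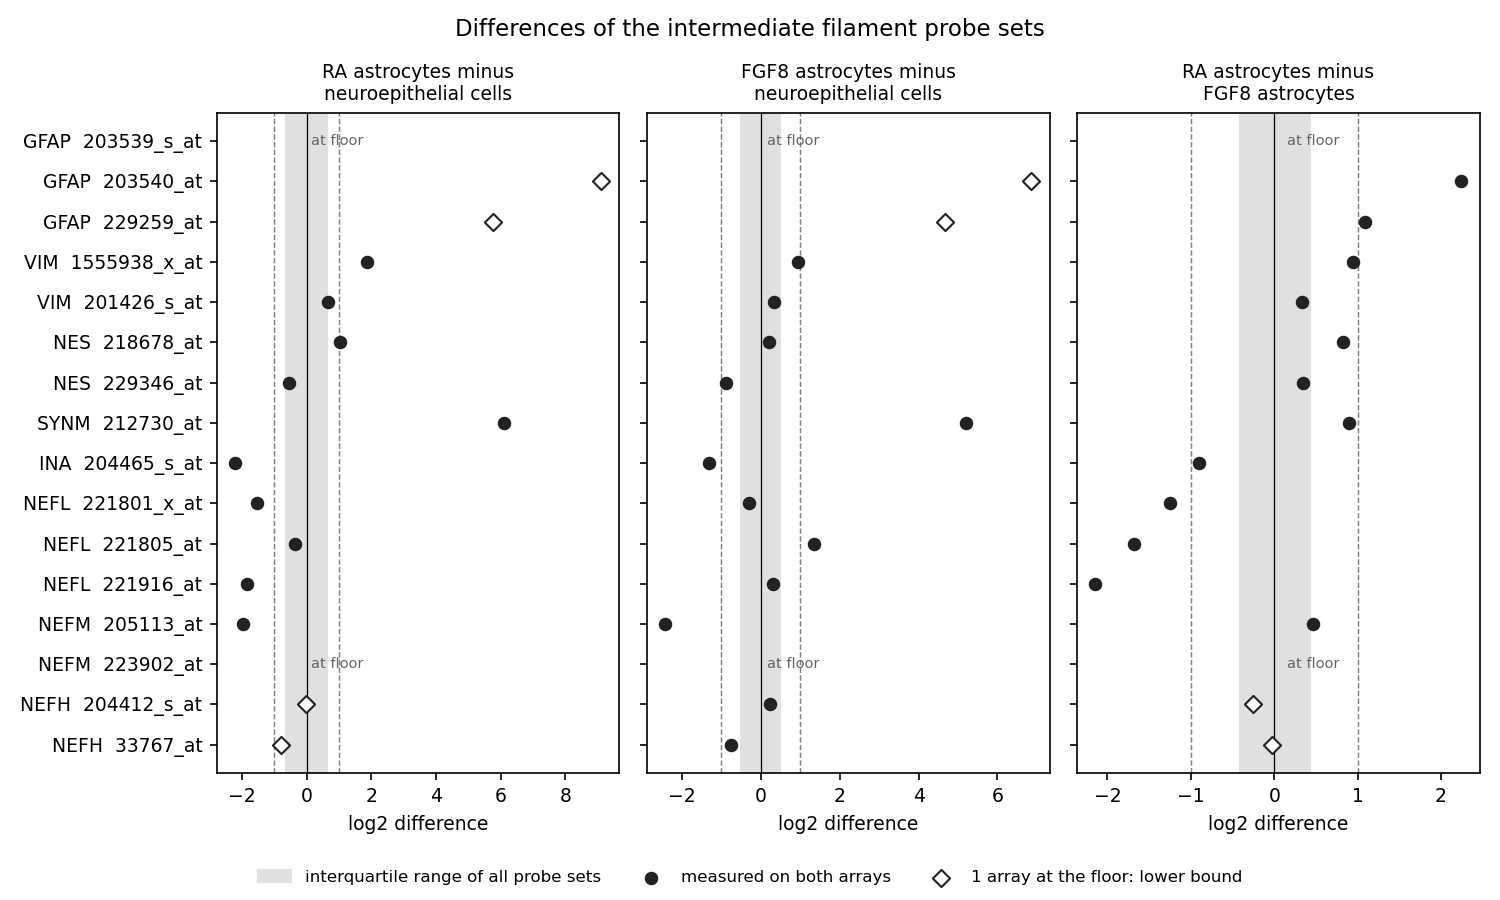
Log2 differences of the 16 intermediate filament probe sets in 3 comparisons, with measured differences as filled points, lower bounds as open diamonds, 2-fold as dashed lines and the interquartile range of all compared probe sets in grey. The GFAP and SYNM points lie far right of the dashed lines in both comparisons with neuroepithelial cells, and the 3 NEFL points lie left of them in RA minus FGF8 astrocytes.

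GFAP, the filament protein that astrocytes add, was read by 3 probe sets that did not agree. Probe set 203540_at had a signal of 14496 in RA astrocytes, 3058 in FGF8 astrocytes and 6.0, below the floor, in neuroepithelial cells. It was at least 550-fold higher in RA astrocytes and at least 116-fold higher in FGF8 astrocytes than in neuroepithelial cells. Probe set 229259_at gave 1422 in RA astrocytes, 668 in FGF8 astrocytes and 1.14 in neuroepithelial cells, so it was at least 53.9-fold and at least 25.3-fold higher. The order of the 3 arrays was the same on both probe sets. The third, 203539_s_at, lay below the floor everywhere, at 2.01 in RA astrocytes, 3.19 in FGF8 astrocytes and 2.64 in neuroepithelial cells. A probe set at the floor beside one above it was common on these arrays. Of 10523 genes with several probe sets, 39.7% had at least 1 above the floor somewhere and at least 1 at the floor on all arrays. That count does not ask for a gap as wide as that of GFAP.

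Between the astrocyte cultures, GFAP was higher after RA than after FGF8. The log2 difference was 2.24 on 203540_at, a 4.74-fold difference and the 253rd largest of the 20194 measured on both arrays. It was 1.09, or 2.13-fold, on 229259_at. With the spike-in scaling 203540_at was still higher in RA astrocytes, at 1.38, but 229259_at turned to -0.16. The difference between RA and FGF8 cultures on the second probe set therefore depends on the scaling. In these bulk samples, a larger share of GFAP-bearing cells and more GFAP RNA per cell cannot be told apart.

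SYNM encodes synemin, a long filament protein that joins GFAP, vimentin or desmin and links filaments to membrane complexes. Its only probe set, 212730_at, had a signal of 5051 in RA astrocytes, 2713 in FGF8 astrocytes and 73.2 in neuroepithelial cells. Unlike GFAP, it was above the floor on every array. SYNM was 69.0-fold higher in RA astrocytes than in neuroepithelial cells, the 11th largest of the 19600 differences measured on both arrays. In FGF8 astrocytes it was 37.0-fold higher, the 18th largest of 20138. These log2 differences of 6.11 and 5.21 ranged from 4.74 to 6.55 and from 4.90 to 5.49 over the 4 scalings. RA and FGF8 astrocytes differed by 0.90, within 2-fold. This was 1.11 with the deposited values and 1.06 with equal array medians, past 2-fold, and -0.16 with the spike-in scaling.

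VIM, the vimentin of progenitors, glia and mesenchyme, was bright in all cultures. Probe set 201426_s_at gave 16491 in RA astrocytes, 13084 in FGF8 astrocytes and 10341 in neuroepithelial cells. Both differences from neuroepithelial cells were within 2-fold, at 0.67 and 0.34. This probe set was sensitive to scaling in the RA array: the difference was 1.22 with the deposited values and 1.64 with equal array medians, both past 2-fold, and -0.17 with the spike-in scaling. The second probe set, 1555938_x_at, of a type that can bind other transcripts, was dim and kept the same order of arrays. It gave 171 in RA astrocytes, 89.2 in FGF8 astrocytes and 46.6 in neuroepithelial cells, 3.68-fold higher after RA and 1.92-fold after FGF8. The VIM differences of RA minus FGF8 astrocytes were 0.33 on 201426_s_at and 0.94 on 1555938_x_at, both within 2-fold and both -0.33 or -0.32 with the spike-in scaling. The mesenchymal markers, of cells that also make vimentin, were 6 of 8 lower in RA astrocytes and 7 of 8 lower in FGF8 astrocytes than in neuroepithelial cells (medians -4.11 and -3.40). By the mean of each gene's probe sets 4 of 8 were lower in each and 1 was higher in RA astrocytes (medians -1.66 and -0.85). By lead probe set 14.6% of all genes were lower in the RA comparison and 10.2% in the FGF8 comparison. COL1A1, a fibrillar collagen, was at least 190-fold lower in both. By its lead probe set ACTA2 had 4090 in RA astrocytes, 217 in FGF8 astrocytes and 2160 in neuroepithelial cells. It was thus within 2-fold in RA astrocytes. Of 3 markers compared between RA and FGF8 astrocytes, ACTA2 was 18.9-fold higher, COL1A2 7.19-fold lower and TWIST1 within 2-fold. The part of mesenchymal cells in the VIM values was not tested.

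NES encodes nestin, the partner of vimentin in neural progenitors, and its 2 probe sets went opposite ways. Probe set 218678_at gave 5894 in RA astrocytes, 3340 in FGF8 astrocytes and 2870 in neuroepithelial cells. It was 2.05-fold higher after RA, just past 2-fold, and 1.16-fold higher after FGF8. The spike-in scaling turned the RA difference of 1.04 to -0.05. Probe set 229346_at was dim, at 71.4 in RA astrocytes, 56.3 in FGF8 astrocytes and 104 in neuroepithelial cells. Its differences of -0.55 and -0.89 were within 2-fold, and negative under all 4 scalings. Past 2-fold were the spike-in value of -2.17 for RA and the deposited and spike-in values of -1.08 and -1.20 for FGF8. The NES differences of RA minus FGF8 astrocytes were 0.82 on 218678_at and 0.34 on 229346_at, within 2-fold, and -0.21 and -0.97 with the spike-in scaling. Probe sets of opposite sign were found in 37.3% of the 6808 genes with several compared probe sets in RA astrocytes against neuroepithelial cells, and in 41.7% of 6696 genes in FGF8 astrocytes against neuroepithelial cells. Where along the transcript each NES probe set lies was not analysed here, and the part of the stronger 3′ bias was not tested. With quantile normalization, neither NES probe set was called lower in an astrocyte culture.

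INA encodes alpha-internexin, which young neurons make before the neurofilament triplet. Its only probe set, 204465_s_at, gave 129 in RA astrocytes, 242 in FGF8 astrocytes and 595 in neuroepithelial cells. It was 4.61-fold lower in RA astrocytes and 2.46-fold lower in FGF8 astrocytes than in neuroepithelial cells. All 4 scalings gave negative differences, from -3.61 to -1.81 for RA and from -1.38 to -0.79 for FGF8. The equal-median value for FGF8 was within 2-fold. RA minus FGF8 astrocytes gave -0.90, within 2-fold, and -1.02 with equal array medians and -2.24 with the spike-in scaling, past 2-fold.

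The promoters of SYNM, higher in both astrocyte cultures, and INA, lower in both, are shown as the pair of filament genes with a single probe set each and opposite differences. RefSeq promoters (GRCh38.p14) were matched for 4 of the 8 genes, VIM, NES, SYNM and INA, and the 250 bases before each gene's start were read. The SYNM stretch is chr15:99104830-99105079 and the INA stretch chr10:103276888-103277137, both on the plus strand. Capitals mark matches on either strand to the GC box GGGCGG, the CCAAT box CCAAT and the E box CAGCTG, where neighbouring matches can overlap.
SYNM: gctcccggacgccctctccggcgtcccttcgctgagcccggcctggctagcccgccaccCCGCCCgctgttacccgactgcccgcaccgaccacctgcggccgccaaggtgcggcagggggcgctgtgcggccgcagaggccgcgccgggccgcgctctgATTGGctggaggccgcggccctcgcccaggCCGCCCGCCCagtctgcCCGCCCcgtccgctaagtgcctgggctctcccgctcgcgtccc
INA: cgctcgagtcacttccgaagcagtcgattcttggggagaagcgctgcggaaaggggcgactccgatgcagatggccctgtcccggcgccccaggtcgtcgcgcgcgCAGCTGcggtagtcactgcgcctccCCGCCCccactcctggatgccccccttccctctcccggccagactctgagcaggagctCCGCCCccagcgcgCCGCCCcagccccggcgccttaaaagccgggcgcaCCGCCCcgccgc

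Both sequences were rich in CpG dinucleotides although the genes differed in opposite directions. The SYNM stretch held 34 CpG, more than 93.2% of the 35114 promoters of the same length, and the INA stretch 30, more than 87.6% of them. NES and VIM held 8 each, more than 43.7%. Each of SYNM and INA held 4 GC box matches, a motif present in 42.6% of all promoters. NES held 2 and VIM 1. SYNM also had 1 CCAAT box, found in 32.0% of promoters, and INA 1 E box, found in 14.0%. The TATA box TATAAA, the AP-1 motif TGANTCA, the STAT motif TTCNNNGAA, the CRE core TGACGTCA and the SOX motif ACAAAG had no match in these 4 windows. They occurred in 10.7%, 6.57%, 6.57%, 1.65% and 13.7% of all promoters. A match is a description of letters, and these data do not measure binding.

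NEFM, the medium neurofilament subunit, was also lower in both astrocyte cultures. Probe set 205113_at gave 184 in RA astrocytes, 134 in FGF8 astrocytes and 711 in neuroepithelial cells. It was 3.87-fold lower after RA and 5.33-fold lower after FGF8, and both stayed past 2-fold under all 4 scalings. Its FGF8 difference of -2.41 was the 239th lowest of 20138. The other NEFM probe set, 223902_at, lay below the floor on all arrays, at 1.31 in RA astrocytes, 2.04 in FGF8 astrocytes and 0.92 in neuroepithelial cells.

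NEFL, the light subunit that forms the core of every neurofilament, did not follow NEFM. Probe set 221916_at gave 328 in RA astrocytes, 1450 in FGF8 astrocytes and 1176 in neuroepithelial cells. Probe set 221805_at gave 443 in RA astrocytes, 1427 in FGF8 astrocytes and 562 in neuroepithelial cells. The cross-hybridising type, 221801_x_at, gave 75.7 in RA astrocytes, 179 in FGF8 astrocytes and 218 in neuroepithelial cells. The RA array was the lowest of the 3 on every NEFL probe set, while FGF8 astrocytes lay above neuroepithelial cells on 221916_at and 221805_at and below them on 221801_x_at.

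Against neuroepithelial cells, the RA culture was 3.59-fold lower on 221916_at and 2.88-fold lower on 221801_x_at, and within 2-fold on 221805_at at -0.34, which became 0.10 with equal array medians. The FGF8 culture was 2.54-fold higher on 221805_at and within 2-fold on the others, at 0.30 on 221916_at and -0.28 on 221801_x_at, the last turning to 0.13 with equal array medians. Between the astrocyte cultures all 3 probe sets agreed. NEFL was 4.42-fold, 3.22-fold and 2.37-fold lower in RA than in FGF8 astrocytes on 221916_at, 221805_at and 221801_x_at. Each of these was past 2-fold under all 4 scalings, ranging from -3.44 to -1.24 over the probe sets. NEFL and NEFM are next to each other among protein-coding genes in a human reference gene table (GRCh38.p14), yet NEFM differed by 0.46 between RA and FGF8 astrocytes, within 2-fold, and by -0.83 with the spike-in scaling.

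NEFH, the heavy subunit added last as axons mature, was at or near the floor. Probe set 204412_s_at gave 3.55 in RA astrocytes, 31.5 in FGF8 astrocytes and 26.6 in neuroepithelial cells. Probe set 33767_at gave 1.12 in RA astrocytes, 26.9 in FGF8 astrocytes and 45.1 in neuroepithelial cells. Only the RA array was under the floor on both. The bounds this allows are small, at least 1.01-fold and 1.71-fold lower in RA astrocytes than in neuroepithelial cells. When the floor was lowered to the 30th percentile, the log2 bounds were -1.48 and -2.25. No NEFH difference was past 2-fold with quantile normalization and the floor of 26.4. On 33767_at the deposited values gave a bound of -1.02 in both astrocyte cultures, because both lay under the floor. The spike-in scaling gave a bound of -1.46 in RA astrocytes and a measured -1.29 in FGF8 astrocytes. The FGF8 difference on 204412_s_at, 0.25, was -0.19 and -0.31 under these scalings.

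**Figure D3:**
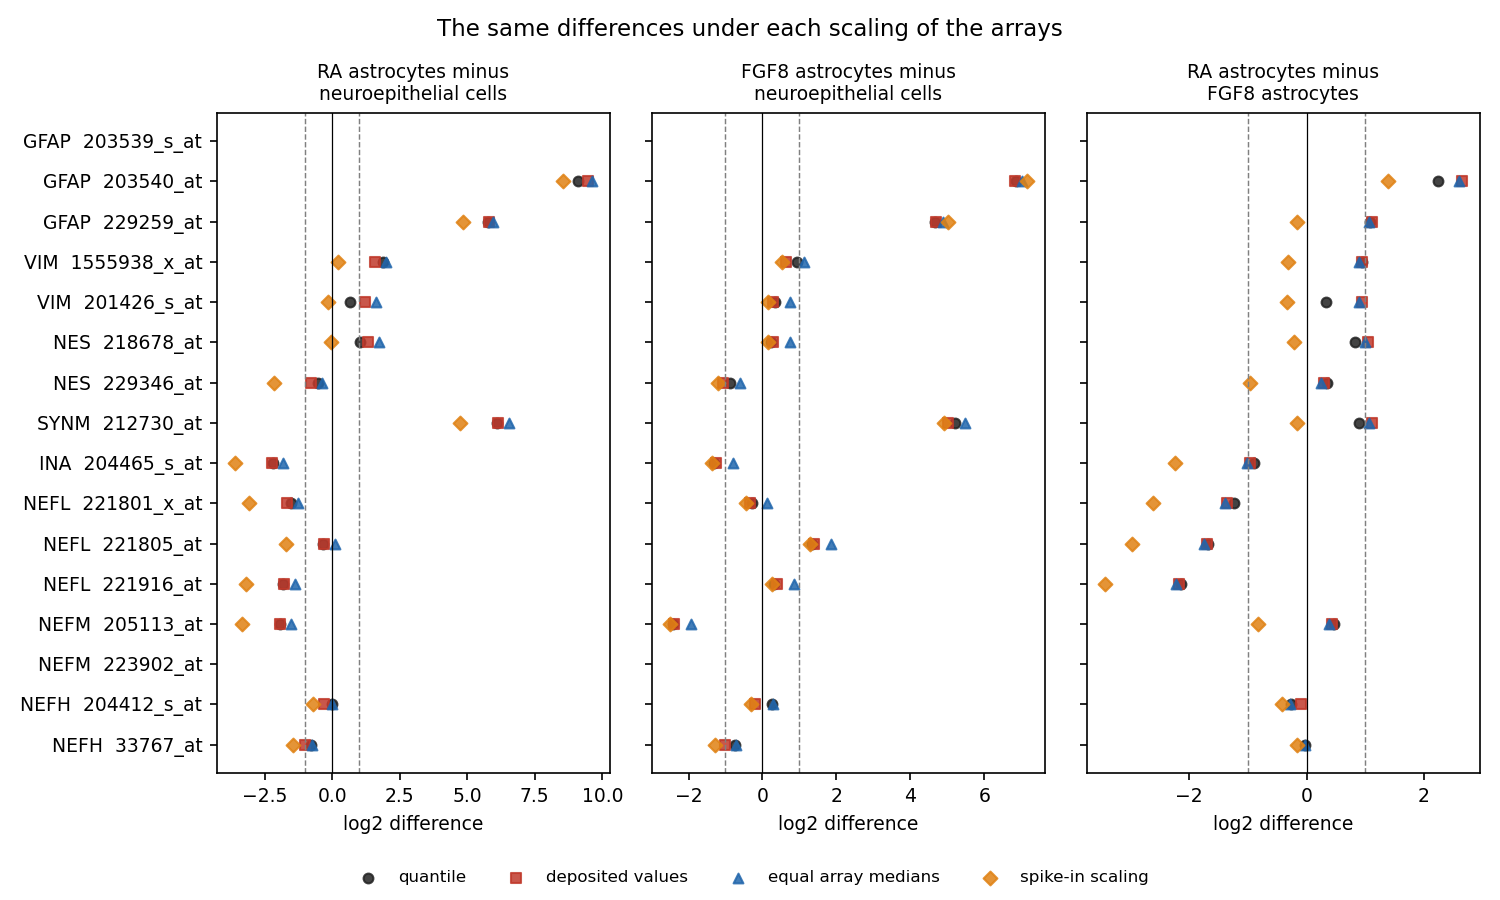
Log2 differences of the intermediate filament probe sets under quantile normalization, the deposited values, equal array medians and scaling to the spike-ins, with 2-fold as dashed lines; a point with 1 array at the floor is a lower bound. GFAP and SYNM stay right of 2-fold against neuroepithelial cells and NEFL stays left of 2-fold between RA and FGF8 astrocytes, while VIM 201426_s_at and NES 218678_at in RA astrocytes cross 0.

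Neuron markers were set beside the neurofilaments. Of 12, 3 were higher and 4 lower in RA astrocytes than in neuroepithelial cells, with a median log2 difference of 0.10. In FGF8 astrocytes 5 were higher and 2 lower of 11 compared, with a median of 0.34. Over all genes, each read by its lead probe set, 18.1% were higher and 14.6% lower in the RA comparison, with a median of 0.07. In the FGF8 comparison these were 12.8%, 10.2% and 0.05. The mean log2 level over the 12 markers was 8.63 in RA astrocytes, 8.74 in FGF8 astrocytes and 8.74 in neuroepithelial cells.

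Single neuron markers went different ways. DCX, a microtubule protein of migrating young neurons, had 582 in RA astrocytes, 6763 in FGF8 astrocytes and 2058 in neuroepithelial cells. STMN2, a microtubule regulator of growing axons, had 153 in RA astrocytes, 17.1 in FGF8 astrocytes and 2237 in neuroepithelial cells. DCX was thus lowest in the RA array, as NEFL was, and STMN2 was lowest in the FGF8 array, as NEFM was. Between RA and FGF8 astrocytes 3 of 11 neuron markers were higher and 3 lower (median 0.25), beside 9.68% and 7.86% of all genes. The higher ones were STMN2 at least 5.80-fold, SYT1 5.08-fold and GAP43 2.33-fold. The lower ones were DCX 11.6-fold, SNAP25 at least 4.50-fold and ELAVL4 2.67-fold. RBFOX3, a nuclear protein of mature neurons, was under the floor in both astrocyte arrays, SNAP25 was under it in RA astrocytes, and STMN2 and SYP in FGF8 astrocytes. The part of neurons in the neurofilament values was not tested.

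Among the motors and structural proteins that accompany neurofilaments in axons, more were higher than lower by lead probe set, unlike INA and NEFM. GAP43, MAPT, MAP2, TUBB3 and STMN2 of this list are also neuron markers counted above, so the lists are not independent. Of 19, 10 were higher and 2 lower in RA astrocytes than in neuroepithelial cells (median 1.07), and 9 were higher and 2 lower in FGF8 astrocytes (median 0.59). Over all genes 18.1% were higher and 14.6% lower in the RA comparison, and 12.8% and 10.2% in the FGF8 comparison. With the mean of each gene's probe sets in place of its lead, 6 of 18 were higher in RA astrocytes (median 0.25) and 5 in FGF8 astrocytes (median 0.24). The spike-in scaling turned the RA median to -0.31. In RA astrocytes PRPH was 29.0-fold, the growth cone protein GAP43 13.1-fold and the microtubule protein MAPT 9.62-fold higher. In FGF8 astrocytes PRPH was 18.5-fold, MAPT 6.30-fold and GAP43 5.62-fold higher. STMN2 was 14.6-fold lower after RA and at least 84.8-fold lower after FGF8. ANK3, which organises the start of the axon, was 2.49-fold lower after RA and 29.4-fold lower after FGF8. Between RA and FGF8 astrocytes 4 of 19 were higher and 1 lower (median 0.61, and -0.57 with the spike-in scaling), where 9.68% of all genes were higher and 7.86% lower (median 0.0088).

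PRPH, which is counted in this list, among the other filament proteins and among the Schwann and peripheral markers, encodes peripherin, a close relative of vimentin and GFAP found in peripheral neurons. Its only probe set gave 1121 in RA astrocytes, 717 in FGF8 astrocytes and 38.7 in neuroepithelial cells. Both astrocyte arrays were far above the neuroepithelial array, the same order as for GFAP and SYNM. The sensory and motor neuron factors ISL1 and POU4F1, markers of cells that make peripherin, were under the floor in both astrocyte arrays and above it, at 241 and 42.1, in neuroepithelial cells.

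Filament proteins of other tissues and of the nucleus were measured too. Of 15 genes, 4 were higher and 4 lower in each astrocyte culture than in neuroepithelial cells, of 13 compared in RA (median -0.14, and 0.39 with equal array medians) and 12 in FGF8 (median -0.58). Over all genes 18.1% were higher and 14.6% lower in the RA comparison, and 12.8% and 10.2% in the FGF8 comparison. Beside PRPH, SYNC, a filament protein that binds dystrobrevin in muscle, was 17.3-fold higher in RA and 3.39-fold higher in FGF8 astrocytes. DES, the muscle filament desmin, was at least 9.63-fold and at least 2.96-fold higher on its lead probe set, while its second probe set was at the floor on all arrays. LMNA, a nuclear lamin, was 4.65-fold and 2.44-fold higher on its lead probe set, while the lamin LMNB1 was 9.32-fold and 2.29-fold lower. The other LMNA probe sets disagreed, from -0.50 to 2.29 log2 units in RA and from -0.06 to 1.48 in FGF8 astrocytes, with another at the floor. The simple epithelial keratins KRT18, KRT8 and KRT19 were lower, and the keratins KRT7 and KRT10 were within 2-fold. KRT18 had 4.33 in RA astrocytes, 7.90 in FGF8 astrocytes and 1584 in neuroepithelial cells. It was at least 60.1-fold lower in both. KRT8 was 21.7-fold lower in RA astrocytes and at least 27.0-fold lower in FGF8 astrocytes, and KRT19 at least 15.4-fold lower in each. Another KRT19 probe set was at the floor on all arrays. Between RA and FGF8 astrocytes 3 of 11 were higher (median 0.57, and -0.48 with the spike-in scaling). The higher ones were SYNC at 5.11-fold, DES at 3.25-fold and KRT7 at 2.20-fold, and LMNB1 was 4.06-fold lower. KRT7 was near the floor in FGF8 astrocytes, at 29.6. Its other probe sets gave a bound of 0.45 or lay at the floor on both arrays. Of all genes, 9.68% were higher and 7.86% lower between these cultures.

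Proteins that link filaments or protect them from clumping were measured for 11 of 13 genes. In RA astrocytes 5 of 10 compared were higher and 3 lower than in neuroepithelial cells (median 0.95), and in FGF8 astrocytes 3 of 11 were higher and 2 lower (median 0.25). Over all genes 18.1% were higher and 14.6% lower in the RA comparison, and 12.8% and 10.2% in the FGF8 comparison. CRYAB, a small heat shock protein that binds GFAP and vimentin, was 9.22-fold higher after RA and 2.74-fold after FGF8. The linker protein DST was 7.78-fold and 4.66-fold higher, and the linker plectin, PLEC, 6.36-fold and 2.28-fold higher. EPPK1, an epithelial plakin, was at least 5.50-fold lower in each. Between RA and FGF8 astrocytes 4 of 10 were higher and 0 lower (median 0.81), namely CRYAB at 3.37-fold, DMD at 3.19-fold, PLEC at 2.79-fold and HSPB1 at 2.37-fold. HSPB1 was chosen after its value was seen. Of all genes, 9.68% were higher and 7.86% lower between these cultures. With the spike-in scaling the list's medians were -0.30 in RA astrocytes against neuroepithelial cells and -0.32 in RA against FGF8 astrocytes.

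Enzymes that act on filament proteins were measured for 15 of 18 genes. In RA astrocytes 3 were higher and 5 lower than in neuroepithelial cells (median -0.07, and 0.42 with equal array medians), and in FGF8 astrocytes 3 were higher and 3 lower (median 0.12). These higher calls rest on the lead probe sets: with the mean of each gene's probe sets 0 of 14 were higher in either culture, 5 were lower in RA astrocytes (median -0.38) and 3 in FGF8 astrocytes (median -0.19). By lead probe set, 18.1% of all genes were higher and 14.6% lower in the RA comparison. In the FGF8 comparison these shares were 12.8% and 10.2%. The mitotic kinases AURKB, AURKA and PLK1, which phosphorylate vimentin or related filaments as cells divide, were 24.9-fold, 15.5-fold and 7.74-fold lower in RA astrocytes. In FGF8 astrocytes they were 5.96-fold, 2.30-fold and 3.20-fold lower. The kinase PRKCA was 13.2-fold and 4.43-fold higher on its lead probe set. Between RA and FGF8 astrocytes 2 of 15 were higher and 4 lower (median -0.51), with AURKA at 6.76-fold lower. By the mean of each gene's probe sets 0 of 14 were higher there and 3 lower (median -0.43). Of all genes by lead probe set, 9.68% were higher and 7.86% lower there.

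Most factors known to act on the GFAP gene stood higher in both astrocyte cultures. Of 24 genes 21 were measured, and 15 were higher and 2 lower in RA astrocytes than in neuroepithelial cells (median 2.04). In FGF8 astrocytes 14 were higher and 3 lower (median 1.60). Over all genes 18.1% were higher and 14.6% lower in the RA comparison, and 12.8% and 10.2% in the FGF8 comparison. By the mean of each gene's probe sets 13 of 21 were higher in RA astrocytes (median 1.24) and 11 in FGF8 astrocytes (median 1.15). With the spike-in scaling the RA median was 0.79. NFIX, NFIB and NFIA, nuclear factor I proteins that promote gliogenesis, were at least 141-fold, 49.5-fold and 43.3-fold higher in RA astrocytes. In FGF8 astrocytes NFIA was 85.9-fold, NFIB 50.3-fold and NFIX at least 49.8-fold higher. STAT3, which carries cytokine signals to the GFAP promoter and was chosen after its values were seen, was 5.57-fold and 3.02-fold higher. PAX6 was lower, 3.15-fold in RA and 3.64-fold in FGF8 astrocytes. NR2F1 was at least 42.9-fold lower in FGF8 astrocytes but 2.37-fold higher in RA astrocytes. The remaining lower genes were DNMT1, 2.28-fold in RA astrocytes, and HES1, 2.02-fold in FGF8 astrocytes. Between RA and FGF8 astrocytes, where GFAP differed 4.74-fold on its brightest probe set, 17 of 21 lay within 2-fold (median 0.15, and -1.14 with the spike-in scaling). The exceptions were NR2F1 at least 102-fold, NFIX 2.84-fold and CNTFR 2.44-fold higher, and LIFR 2.76-fold lower, in RA astrocytes.

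Factors that act on the nestin enhancer, most of them SOX and POU proteins, went both ways. Of 8 compared in RA astrocytes 2 were higher and 4 lower than in neuroepithelial cells (median -0.97), and in FGF8 astrocytes 1 was higher and 3 were lower (median -0.22, which turned to 0.32 with equal array medians and 0.04 with the lower floor). Over all genes 18.1% were higher and 14.6% lower in the RA comparison, and 12.8% and 10.2% in the FGF8 comparison. SOX3, an early neural factor, was 34.8-fold and 33.7-fold lower, and POU3F2 5.73-fold and 2.17-fold higher. In FGF8 astrocytes the other lower genes were NR2F1 and TFAP2C, which are neither SOX nor POU proteins. SOX2 was within 2-fold in both. The NES probe sets of these arrays are described above.

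**Figure D4:**
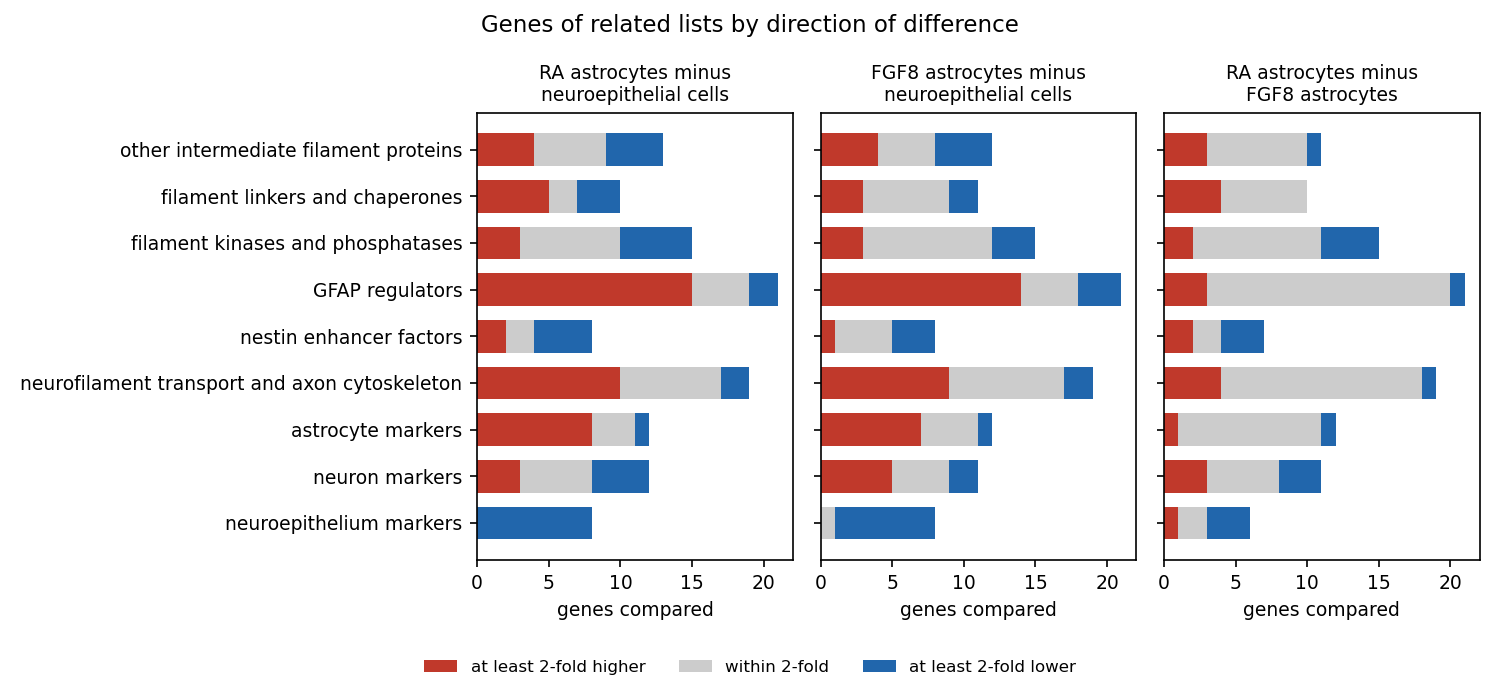
Number of genes at least 2-fold higher, within 2-fold or at least 2-fold lower in each comparison, for lists of genes related to intermediate filaments and for cell type markers. Each gene is read by its lead probe set. Of 21 factors that act on GFAP, 15 were higher in RA astrocytes and 14 in FGF8 astrocytes than in neuroepithelial cells, and 17 lay within 2-fold between the astrocyte cultures.

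Remaining marker lists were scored alike. The astrocyte markers had a median of 2.17 in RA and 2.62 in FGF8 astrocytes against neuroepithelial cells, and of 0.85 and 1.43 by the mean of each gene's probe sets. Between RA and FGF8 astrocytes 1 of 12 was higher and 1 lower (median -0.10, and -1.22 with the spike-in scaling), beside 9.68% higher and 7.86% lower over all genes. The neuroepithelium markers were 8 of 8 lower in RA and 7 of 8 lower in FGF8 astrocytes. Epithelial markers were 5 of 6 and 6 of 6 lower. Of all genes, 14.6% were lower in the RA comparison and 10.2% in the FGF8 comparison. Of 6 oligodendrocyte markers 4 could be compared in RA astrocytes, with 0 past 2-fold, and 3 in FGF8 astrocytes, with 1 higher. Of 5 endothelial markers 3 could be compared, and 1 was lower in each. Of 6 microglia markers 4 were at the floor on all arrays and 1 could be compared with neuroepithelial cells, within 2-fold in each. Of the 4 muscle markers analysed, 2 could be compared: DES was higher and ACTC1 lower in each, and of the 3 Schwann and peripheral markers analysed PRPH was higher and ISL1 lower.

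Genes whose levels over the 3 arrays lay nearest to each filament gene were sought among 13730 genes. The measure was the Euclidean distance of log2 levels after each gene's mean was subtracted, and with 3 arrays many genes lie close. Values under the floor were raised to it first, so distances depend on the floor wherever a gene lies under it. That holds in neuroepithelial cells for GFAP, HLA-DRA, BBOX1 and CFI, and in RA astrocytes for SNAP25. For GFAP the nearest were CHL1, an adhesion molecule, at 1.16, CD44, a hyaluronan receptor, at 1.26, and HLA-DRA, an MHC class II chain, at 1.29. For SYNM they were BBOX1, a carnitine synthesis enzyme, at 0.42, the complement factor CFI at 0.50 and C1QL1 at 0.54. For NEFL the nearest gene was SNAP25, a synaptic vesicle fusion protein of neurons, at 0.031, followed by LAMB1 at 0.071 and BRCA1 at 0.076. For NEFM they were MYCN at 0.092, S1PR1 at 0.12 and CCDC160 at 0.13. INA lay nearest to TMA16 at 0.049, FAM216A at 0.053 and TENM3 at 0.067, and NES to PELI3, ERI1 and TMEM242 at 0.010, 0.010 and 0.013. VIM and NEFH spanned less than 2-fold over the arrays on their lead probe sets, so none was sought for them.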

How the data were processed

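Total RNA of 3 H9 cultures was hybridised to 1 Affymetrix array each, after biotin labelling at a core facility, per the labels' protocols. The authors deposited linear intensity values for 54675 probe sets, while the algorithm behind these signals is not stated in the labels. Trimmed of 2% of probe sets at either end, the deposited intensities average 149.979 to 149.982 on the arrays. Because the 75th percentiles differed by 0.14 log2 units, the arrays were quantile normalized, and values under the median of 54613 non-control probe sets were raised to it. Probe sets with several symbols (1801) or none (11721) were left out. Symbols came from GEO's platform annotation, where all 16 probe sets matched the reference table and 0 symbols changed. The brightest probe set on average stood for each listed gene, and _x_at types were skipped where another existed. Up to 3 genes per direction and list with the largest differences are named. Genes, lists and tests were chosen with earlier results of these data known. Differences were counted at 2-fold, with no test. Other settings tried were no normalization, equal medians, a 30th or 70th percentile floor, no floor, 1.5-fold and 4-fold, leaving out _s_at and _x_at probe sets, the mean of a gene's probe sets, and, chosen after seeing the data, spike-in scaling. The steps were tested on simulated data. Python 3.11.15, numpy 2.4.6 and pandas 2.3.3 were used.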

Additional observations from a re-analysis of the deposited data

Results flagged for a closer look

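On 2 of the 3 NEFL probe sets the RA and FGF8 differences from the shared neuroepithelial array had opposite signs, with 1 of the 2 differences within 2-fold each time. On 221805_at the log2 difference was -0.34 in RA astrocytes and 1.34 in FGF8 astrocytes, and the RA value turned to 0.10 with equal array medians. On 221916_at it was -1.84 in RA astrocytes and 0.30 in FGF8 astrocytes. On NEFH 204412_s_at the values were -0.012 in RA astrocytes, a bound at the floor, and 0.25 in FGF8 astrocytes. With 1 array per group these differences between the cultures were not tested.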

How the results depend on the processing

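No paired analysis was possible because each group has 1 array. Nor could any array be left out. Of 42 differences of single probe sets, 13 kept both their direction and their side of 2-fold under every alternative run. Of 354 such values under alternatives 293 did, while 13 had the opposite sign, each of them within 2-fold. Under the spike-in scaling, chosen after seeing the data, NES 218678_at turned to -0.054 in RA astrocytes against neuroepithelial cells and GFAP 229259_at to -0.16 in RA against FGF8 astrocytes. List medians turned there too, to -0.31 for axon cytoskeleton genes in RA astrocytes against neuroepithelial cells, and in RA against FGF8 astrocytes to -1.14 for factors acting on GFAP and -1.24 for neuron markers. This follows from the brighter spike-ins of the RA array. By the mean of each gene's probe sets, in FGF8 astrocytes against neuroepithelial cells 1 of 10 linkers and chaperones (3 of 11 by lead) and 2 of 11 other filament proteins (4 of 12 by lead) were higher, and the neuron markers' median in RA astrocytes was -0.036. In RA astrocytes against neuroepithelial cells, 5 higher probe sets became 3 at 4-fold and with the spike-in scaling, and 4 lower became 1 at 4-fold, 2 without the _s_at and _x_at types and 7 with the spike-in scaling. In FGF8 astrocytes against neuroepithelial cells, 2 lower became 4 with the deposited values, at 1.5-fold and with the spike-in scaling, and 1 with equal array medians, at 4-fold and without the _s_at and _x_at types. In RA against FGF8 astrocytes, 2 higher became 4 with the deposited values and with equal array medians, 5 at 1.5-fold and 1 at 4-fold and with the spike-in scaling, and 3 lower became 5 with the lower floor and without a floor and 1 at 4-fold. Apart from the size thresholds, the probe set types left out and the spike-ins, the cause was not tested. Signals near the floor limit NEFH.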
